A study of Mus musculus with 12 samples.

Results

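Interferon-stimulated genes are the genes that cells switch on after an interferon binds its receptor. The set described here was a written list of 41 of them, found by gene name. 39 of the 41 have a row among the 32285 genes of the count table and all 39 had enough counts to be tested. Mx1 and Mx2 were not analysed here. RNA was sequenced from 2 progenitor populations sorted from the bone marrow of C57BL6/J mice of genotype WT, with no treatment or transgene: Ly6d- CLPs, which are common lymphoid progenitors without the B-lineage surface protein Ly6d, and Flk2+ MPPs, the multipotent progenitors from which they arise. Each population was taken at 1 month (1MO) and 3 months (3MO) of age, in 3 libraries a group and 12 in all, and the study asked how these progenitors change over that interval.

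A type I interferon binds the Ifnar1 and Ifnar2 receptor pair, the attached kinases pass on the signal, and a complex that holds Stat2 and Irf9 enters the nucleus and binds a short DNA element, the interferon-stimulated response element (ISRE). Interferon-gamma instead acts through a GAS element. The genes so induced recognise foreign RNA and DNA, degrade viral RNA, stop translation, coat intracellular pathogens and feed back on the pathway itself. Stem and progenitor cells are known to hold some of these genes at a standing level without infection, and acute interferon is known to push dormant blood stem cells into division.

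The total of the estimated counts was 8889083 to 20677785 per library, with a median of 13208993. The sorted identities held, as Il7r, the interleukin-7 receptor of lymphoid progenitors, was at 299 to 402 CPM (counts scaled to a common library total) in the CLP libraries and at 5.24 to 18.5 in the MPP libraries, and Hlf, a stem and progenitor factor, was at 33.1 to 47.4 and 519 to 657 CPM. By edgeR, 7 of 10 CLP markers were higher in CLPs at each age and 0 lower. Of 10 MPP markers, 7 were lower at 1MO and 8 at 3MO, with 0 higher. At 3MO Cd27 of the CLP markers was lower in CLPs and Cd48 of the MPP markers higher, both without overlap, and neither passed. Xist and 4 genes of the Y chromosome were counted in each of the 12 libraries. The labels give neither sex nor the number of mice in a library, so whether n counts single mice is not known. Markers of erythroid cells summed to 105 to 170 CPM in the 4 libraries numbered 3 and to 20.0 to 37.9 CPM in the others. Markers of stroma summed to 217 to 606 CPM in the 1MO CLPs and to 12.1 to 15.4 CPM in the 3MO CLPs. In sorted bulk RNA, fewer expressing cells and less RNA per cell cannot be told apart.

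Of the 39 members, 30 had a RefSeq promoter window, which covers 250 bases before to 50 bases after a start site on GRCm38.p6. The ISRE core, searched as a GAAA followed after any 2 bases by another GAAA and, for the other strand, as a pair of TTTC spaced likewise, lay in the windows of 18 of these 30 members, against 3.99% of all 27025 genes with windows of that length. The GAS core, TTC and GAA with any 3 bases between them, which reads the same on both strands, lay in those of 7 members, against 9.55% of all those genes. The stretches below are those of the members lower in CLPs that hold an ISRE core before the start site, each 5′ to 3′ on the strand of the gene, with the ISRE core in capitals.
Gbp2, plus strand, chr3:142620584-142620633: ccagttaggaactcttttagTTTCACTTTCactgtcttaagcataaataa
Ifit1, plus strand, chr19:34640765-34640833: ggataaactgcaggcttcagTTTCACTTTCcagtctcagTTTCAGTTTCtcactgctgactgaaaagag
Oas3, minus strand, chr5:120777705-120777754: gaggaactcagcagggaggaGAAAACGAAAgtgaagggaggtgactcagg
Rsad2, minus strand, chr12:26456543-26456592: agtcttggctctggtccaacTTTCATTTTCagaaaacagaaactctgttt
The core began 59 bases before the start site in Gbp2, 75 bases before it in Oas3 and 120 bases before it in Rsad2. These start sites are those of the RefSeq windows, and the Gbp2 gene span given below, from GENCODE, begins within its printed stretch. Ifit1 held 2 cores, and the nearer began 85 bases before the start site. The windows of Ifit2 and Oasl2 held neither spelling of the ISRE core, which says only that these letters were not in them. Oas2, Usp18, Ifi27, Dhx58, Rtp4, Parp9, Parp14, Ifi204, Zbp1, Mx1 and Mx2 had no window in the table.

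The members were transcribed over a wide range in unchallenged progenitors. Compared per length, as CPM per kb of merged exons over all 12 libraries, Ifi203 led at 72.6. It encodes a HIN-200 protein, a family that binds DNA. Dtx3l, a ubiquitin ligase that works with Parp9, followed at 37.4 CPM per kb, and Eif2ak2, the kinase PKR that halts translation on double-stranded RNA, stood at 30.3. Trim30a at 30.1 and Gbp7 at 29.7 CPM per kb lay next to it. At the other end were Ifit3 at 2.33, Zbp1, a sensor of left-handed nucleic acid, at 1.18, Ifi204 at 0.689 and Ifit3b at 0.431 CPM per kb. Isg15, among the strongest interferon-induced genes of most tissues, was low here at 4.37 CPM per kb. Ifi203 led in each of the 4 groups, at 67.9 (1MO) and 57.2 CPM per kb (3MO) in CLPs, with 89.7 and 75.6 for the MPPs. Its gene overlaps Mndal on the same strand, and relatives such as Ifit3 with Ifit3b and Ifi203 with Ifi204 are alike enough that reads can be shared between them, so these levels are uncertain.

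**Figure D1:**
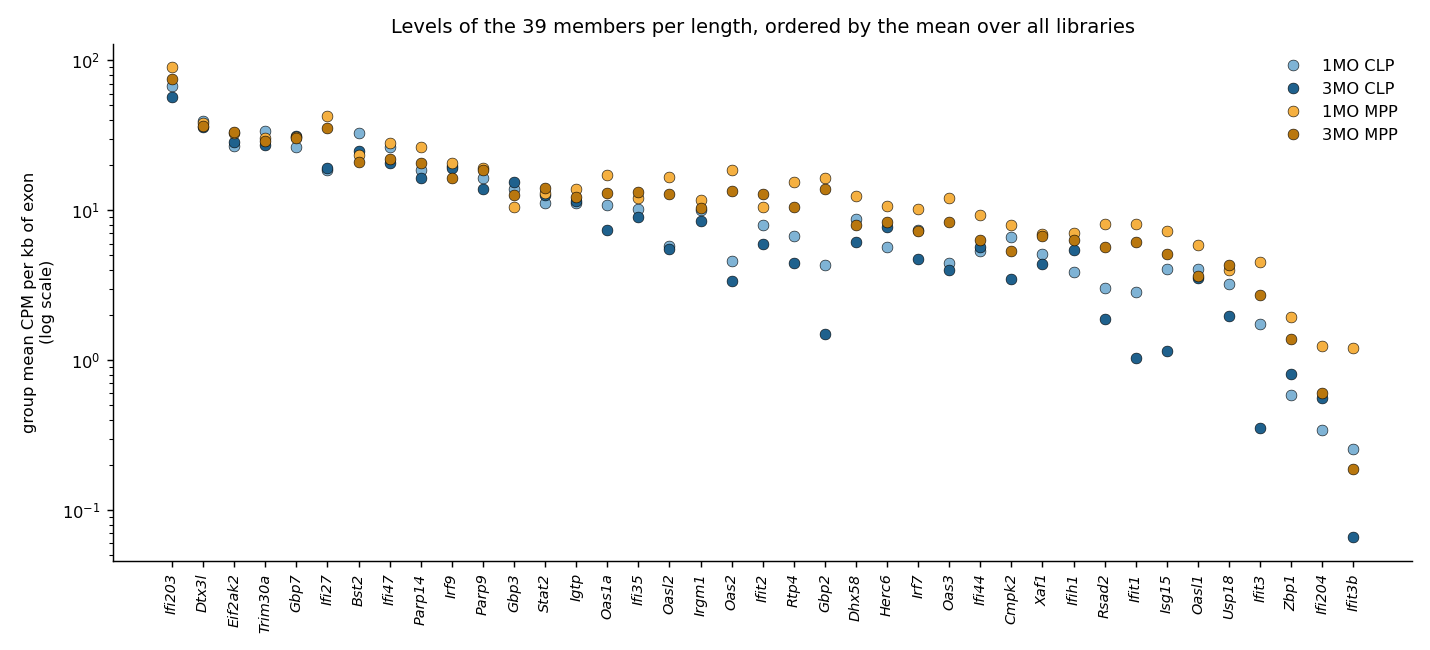
Mean level of each of the 39 members in each group, as TMM-normalized CPM per kb of merged exons on a log axis, ordered by the mean over all 12 libraries. Ifi203 leads and Ifit3b is last. The groups lie close together at the upper end and spread apart for Gbp2, Oas2 and Ifit1, where the CLP points lie below the MPP points.

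Between the populations, several antiviral genes were lower in CLPs than in MPPs at both ages and no member was higher. At 1MO 5 of the 39 members were lower by edgeR's quasi-likelihood test at a Benjamini-Hochberg adjusted p under 0.05, namely Gbp2, Ifi27, Oas2, Oas3 and Oasl2, and 0 were higher. Of all 13367 genes tested, 2.81% were lower and 2.57% were higher. At 3MO 7 members were lower, namely Gbp2, Ifit1, Ifit2, Oas2, Oas3, Oasl2 and Rsad2, and 0 were higher, against 3.34% and 2.73% of all genes. At an unadjusted p under 0.05, 15 members were lower at 1MO and 12 at 3MO, against 8.78% and 10.8% of all genes, and 0 were higher at either age, as was so by DESeq2. The fitted log2 fold change of 35 of the 39 members was below 0 at each age, against 52.2% of all genes at 1MO and 52.4% at 3MO. Its median was -0.49 over the members and -0.02 over all genes at 1MO, and -0.41 and -0.03 at 3MO. The 3 CLP libraries lay below the 3 MPP libraries for 15 members at 1MO, where 13.8% of all genes did so, and for 15 members at 3MO, where 11.7% did. Over both ages, the 6 CLP libraries lay below the 6 MPP libraries for 4 members, Oas2, Oas3, Oasl2 and Gbp2, against 4.57% of all genes. For 31 of the 39 members neither age passed the test.

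Signs of other cells differed between the populations as well, and their part in these results was not tested. The 10 markers of plasmacytoid dendritic cells, known as strong producers of interferon, summed to 774 to 1011 CPM in the CLP libraries and to 414 to 669 in the MPP libraries, and Tcf4 gave 583 to 842 CPM of the CLP sums. Cox6a2, Siglech and Spib were higher in CLPs at both ages by edgeR, and Pacsin1 and Tcf4 at 1MO. Siglech was at means of 69.3 CPM in the 1MO CLPs and 3.09 in the 1MO MPPs, while Klk1 was at 0 in all CLP libraries. Of the 8 tested, 7 had a log2 fold change above 0 at 1MO and 8 at 3MO. Lair1 was the 1 below 0 at 1MO, at 23.5, 14.6 and 10.9 CPM in CLPs and 30.3, 24.8 and 27.7 CPM in MPPs, without overlap. The 10 markers of the B lineage summed to 99 to 139 CPM in the 1MO CLPs and to 51.5 to 70.4 in the 3MO CLPs, against 19.9 to 21.8 and 8.99 to 21.1 CPM in the MPPs of those ages, with Ms4a1 at 0 in all CLP libraries. Ebf1 among them was higher in CLPs at both ages, at means of 63.7 and 0.487 CPM at 1MO, and Cd22 and Pax5 were higher at 3MO. The 10 markers of monocytes and macrophages summed to 407 to 440 CPM in the 1MO CLPs and 189 to 264 in the 1MO MPPs, which do not overlap, and to 346 to 573 and 223 to 372 CPM at 3MO, which do. Of these 10, Csf1r, Cx3cr1, F13a1 and Ly6c2 were higher in CLPs at 1MO, and Csf1r and Cx3cr1 at 3MO. The sums of 10 neutrophil markers, at 945 to 1326 CPM in CLPs and 674 to 823 in MPPs, also did not overlap at 1MO. Mpo alone gave 792 to 1140 CPM of these sums in CLPs and 557 to 680 in MPPs. Of the 10 neutrophil markers, 5 had a log2 fold change above 0 and 5 below at 1MO, and 3 and 7 at 3MO. The sums of 8 stroma markers, at 217 to 606 and 43.6 to 104 CPM, did not overlap at 1MO either. Elane was higher in CLPs at 1MO and Prtn3 lower at 3MO. Col1a2 was higher in CLPs at 1MO and lower at 3MO, and Postn was lower at 1MO. The 6 endothelial markers summed to 275 to 332 CPM in CLPs and 154 to 203 in MPPs, with Pecam1 higher and Emcn lower in CLPs at both ages. Pecam1 alone gave 263 to 299 CPM of the CLP sums and 121 to 172 of the MPP sums. Of the 6 endothelial markers, 3 had a log2 fold change above 0 and 3 below at 1MO, and 2 and 4 at 3MO. The 10 markers of T and NK cells summed to 16.7 to 45.2 CPM in CLPs and to 14.5 to 32.1 in MPPs, which overlap, with Gzma at 0 in every library.

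**Figure D2:**
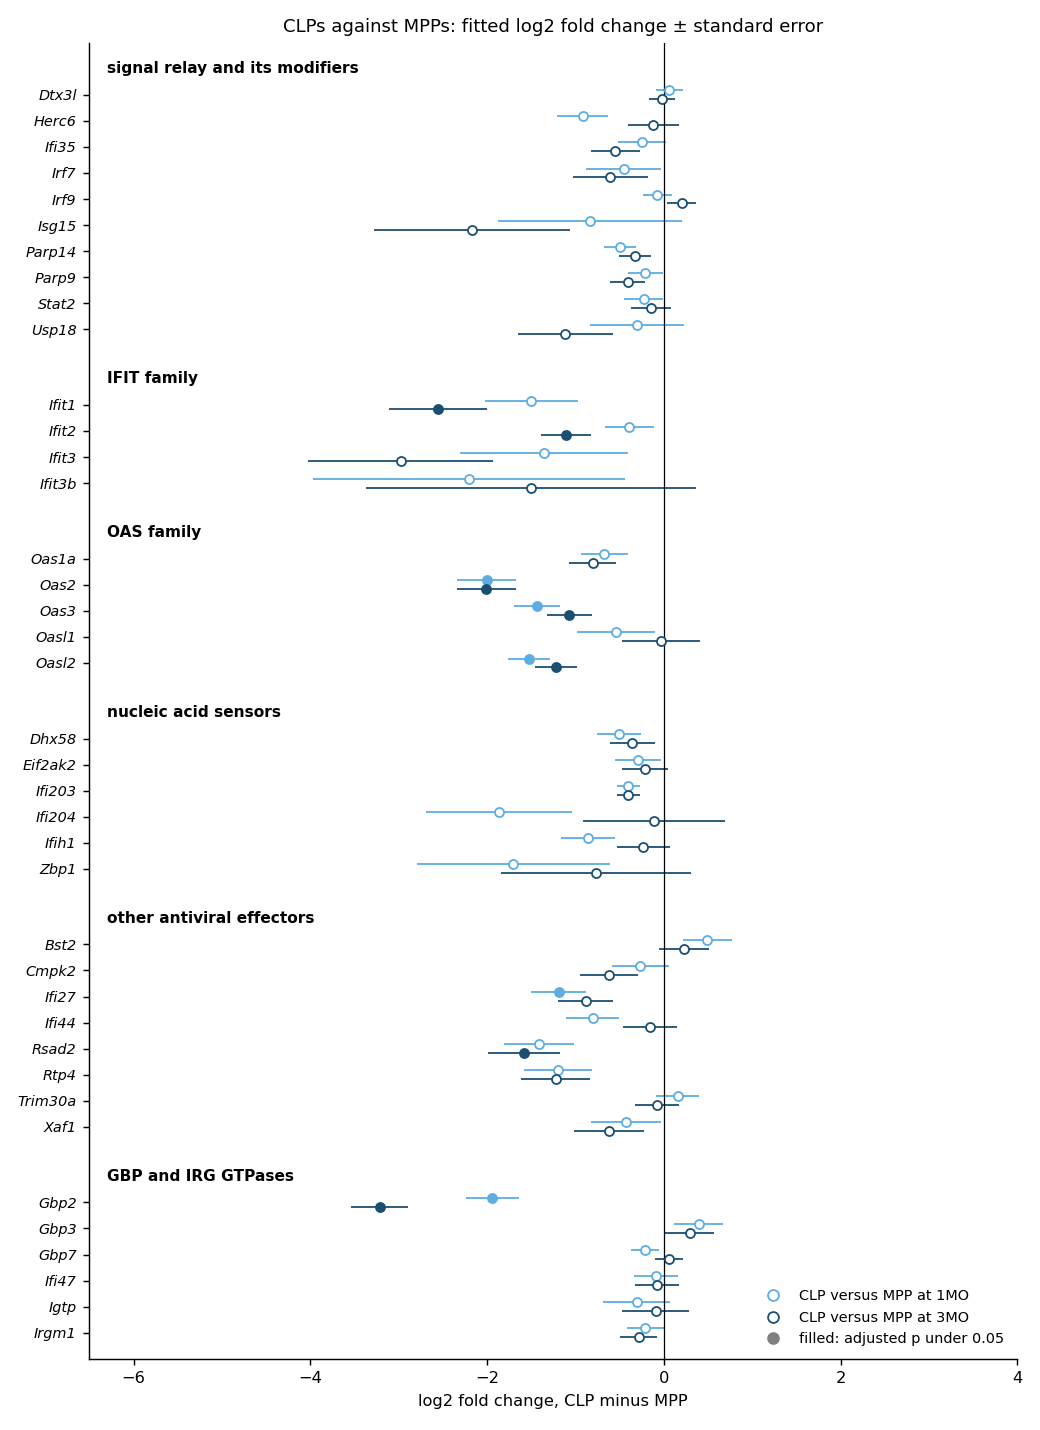
Fitted log2 fold change of CLPs against MPPs at 1MO and 3MO for the 39 members by role, with its standard error as the bar. Filled points pass an adjusted p of 0.05. The filled points are all to the left of 0, and Gbp2, Oas2, Oas3 and Oasl2 are filled at both ages.

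The OAS family held 3 of the 4 members that were lower at both ages, and Gbp2 was the other. Oas1a, Oas2 and Oas3 make the 2′-5′ oligoadenylate signal that switches on RNase L, which cuts viral and cellular RNA, and Oasl1 and Oasl2 are their relatives. 3 of the 5 were lower in CLPs at each age. Oas2 (chr5:120730333-120749853, minus strand) was at 28.2, 17.9 and 15.5 CPM in the 1MO CLPs and at 62.7, 104 and 79.5 CPM in the 1MO MPPs. At 3MO it was at 16.2, 8.9 and 19.6 CPM in CLPs and 80.9, 46.4 and 52.1 CPM in MPPs. The highest of the 6 CLP libraries, at 28.2 CPM, lay below the lowest of the 6 MPP libraries, at 46.4 CPM. Its fitted log2 fold change was -2.0 at 1MO (SE 0.33, 4-fold lower, adjusted p = 0.0016 by edgeR) and -2.01 at 3MO (SE 0.34, 4.02-fold lower, adjusted p = 0.0017).

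Oas3, the largest synthetase and the gene next to Oas2 (chr5:120753098-120777661, minus strand), was at 29.4, 42 and 23.2 CPM in the 1MO CLPs and 63.3, 107 and 85.4 CPM in the 1MO MPPs. At 3MO the CLPs had 25.3, 26.9 and 32.3 CPM and the MPPs 65.4, 63 and 49.2 CPM. The highest CLP library, at 42.0 CPM, was still below the lowest MPP library, at 49.2 CPM. The log2 fold change was -1.43 at 1MO (SE 0.26, adjusted p = 0.0027 by edgeR) and -1.07 at 3MO (SE 0.26, adjusted p = 0.02). Over the 12 fits that each left out a library, the adjusted p of Oas3 at 3MO ranged from 0.016 to 0.083 and 4 lost the call. Oasl2 (chr5:114896936-114912234, plus strand) was at 34.3, 41 and 35.7 CPM against 104, 116 and 101 CPM at 1MO. The 3MO values were 22.5, 42.9 and 39.9 CPM in CLPs and 90.7, 62.8 and 92.3 CPM in MPPs. Its difference was -1.53 at 1MO (log2, SE 0.24, adjusted p = 0.00088 by edgeR) and -1.22 at 3MO (SE 0.24, adjusted p = 0.0055), so the CLP level was 2.88-fold and 2.33-fold lower. Oas1a did not pass by edgeR, although its groups did not overlap at either age, with mean levels of 20.3 and 32.3 CPM in CLPs and MPPs at 1MO and 14 and 24.5 at 3MO (adjusted p = 0.2 and 0.095 by edgeR, 0.11 and 0.035 by DESeq2). Oasl1 also did not pass, at 10.5 and 15.4 CPM at 1MO and 9.28 and 9.51 CPM at 3MO.

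Among the GBP and IRG GTPases, which assemble on vacuoles that hold pathogens, Gbp2 stood apart from its relatives. Gbp2 (chr3:142620602-142638008, plus strand) was at 7.38, 12.6 and 12.4 CPM in the 1MO CLPs and at 4.34, 3.54 and 3.4 CPM in the 3MO CLPs. In the MPPs it was at 37.8, 41.2 and 45.7 CPM at 1MO and 25.5, 32.8 and 46.2 CPM at 3MO. The 4 groups fell in order, with 3MO CLPs lowest and 1MO CLPs next, and the MPP groups of both ages overlapped. The CLP level was 3.83-fold lower than the MPP level at 1MO (log2 -1.94, SE 0.30, adjusted p = 0.00076 by edgeR) and 9.29-fold lower at 3MO (log2 -3.22, SE 0.32, adjusted p = 2.2e-05). The latter was the largest called difference of any member. Of the other 5 GTPases none passed at either age. Gbp3 and Gbp7, the neighbours of Gbp2 on chromosome 3, had log2 fold changes of 0.40 and -0.21 at 1MO and 0.29 and 0.06 at 3MO. Irgm1, Igtp and Ifi47, immunity-related GTPases of chromosome 11, lay between -0.30 and -0.07 on the same scale at both ages. Igtp overlaps Irgm2 and Ifi47 overlaps Olfr56 on the same strand, so their counts may hold reads of those genes.

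**Figure D3:**
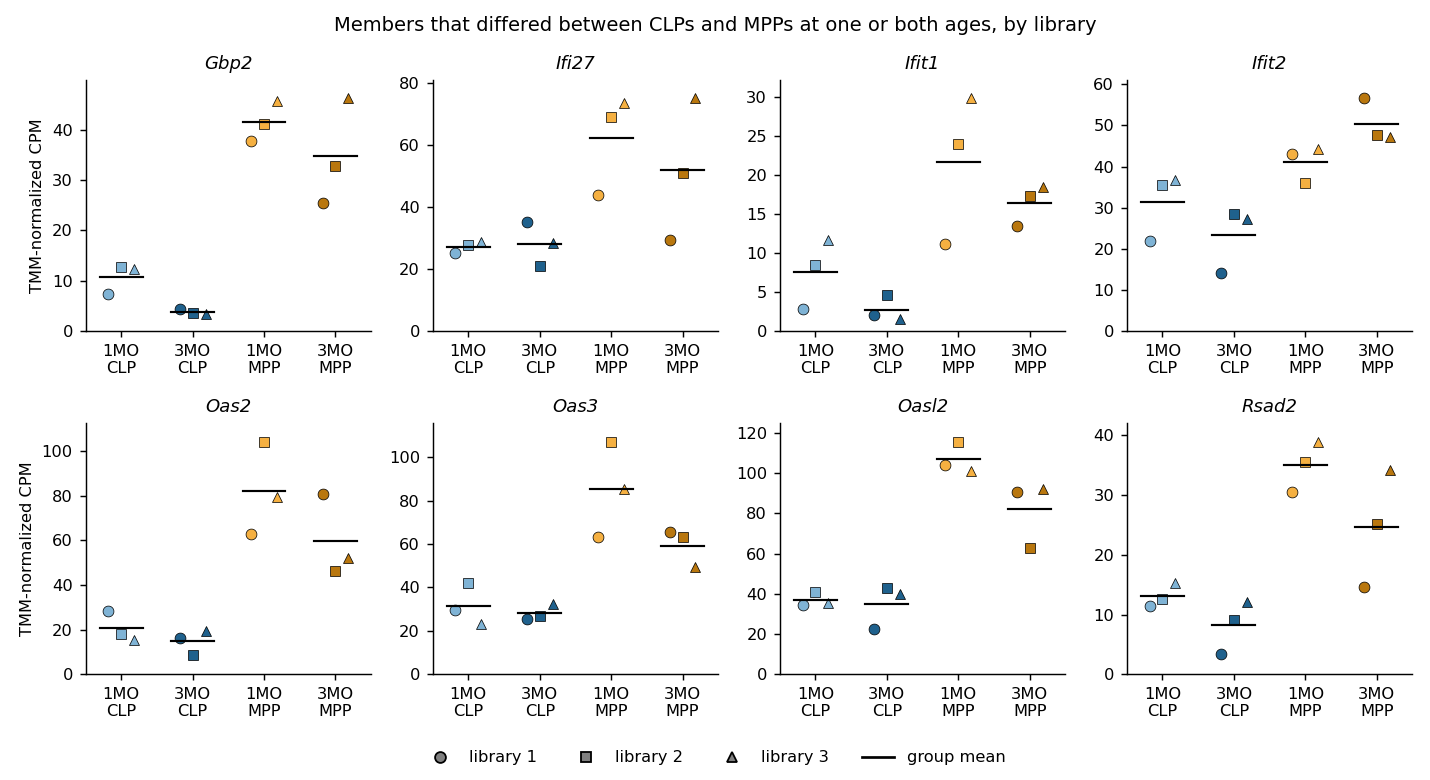
TMM-normalized CPM in each of the 12 libraries for the 8 members lower in CLPs at 1 or both ages. Symbols give the library number and lines the group means. The CLP libraries lie below the MPP libraries at both ages for Gbp2, Oas2, Oas3 and Oasl2, while Ifi27 at 3MO and Ifit1 and Ifit2 at 1MO overlap.

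The IFIT proteins hold back translation of viral RNA by binding its 5′ end, and their genes lie side by side on chromosome 19. None of the 4 passed at 1MO and 2 were lower in CLPs at 3MO. Ifit1 (chr19:34640871-34650009, plus strand) was at 2.12, 4.65 and 1.5 CPM in the 3MO CLPs and 13.4, 17.3 and 18.5 CPM in the 3MO MPPs. At 1MO it was at 2.79, 8.45 and 11.6 CPM in CLPs and 11.2, 23.9 and 29.8 CPM in MPPs. The 3MO groups did not overlap, whereas at 1MO the highest CLP library was just above the lowest MPP library. The log2 fold change was -2.55 at 3MO (SE 0.55, 5.86-fold lower, adjusted p = 0.012 by edgeR) and -1.50 at 1MO (SE 0.53, adjusted p = 0.13).

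Ifit2 (chr19:34550694-34576419, plus strand) was at 14, 28.5 and 27.3 CPM in the 3MO CLPs and 56.6, 47.6 and 47.1 CPM in the 3MO MPPs, a log2 fold change of -1.11 (SE 0.28, adjusted p = 0.028 by edgeR). At 1MO it was at 21.9, 35.4 and 36.8 CPM in CLPs and 43, 36.1 and 44.2 CPM in MPPs (log2 -0.39, SE 0.28, adjusted p = 0.62). Over the 12 fits that each left out a library, the adjusted p at 3MO by edgeR ranged from 0.019 to 0.11 for Ifit2, with 4 calls lost, and from 0.0039 to 0.053 for Ifit1, with 2 lost. The log2 fold change of Ifit1 ranged from -3.18, without library 2 of the 3MO CLPs, to -2.26 over these fits. A fit of only the 3MO groups did not call Ifit2. Ifit3 was at 0.908, 0 and 0.949 CPM in the 3MO CLPs and 2.64, 4.6 and 7.02 CPM in the 3MO MPPs, which did not overlap but did not pass by edgeR (adjusted p = 0.12 by edgeR, 0.019 by DESeq2). Ifit3b was at 0 in 4 of the 12 libraries and reached 2.42 CPM on average only in the 1MO MPPs.

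Of the other antiviral effectors, 1 of 8 was lower in CLPs at each age. Rsad2 (chr12:26442746-26456452, minus strand), which encodes viperin, an enzyme that makes a chain-terminating nucleotide, was at 3.33, 9.13 and 12.1 CPM in the 3MO CLPs and 14.6, 25.1 and 34.1 CPM in the 3MO MPPs. At 1MO the values were 11.4, 12.6 and 15.4 CPM and 30.5, 35.4 and 38.9 CPM. The populations did not overlap at either age. The log2 fold change was -1.58 at 3MO (SE 0.40, adjusted p = 0.029 by edgeR, 0.012 to 0.12 over the fits without a library) and -1.41 at 1MO (SE 0.40, adjusted p = 0.053, 0.011 by DESeq2), just short of the threshold by edgeR. A fit of only the 3MO groups did not call it at 3MO. Ifi27 (chr12:103434211-103440239, plus strand), which encodes a small membrane protein, was at 25.3, 27.8 and 28.9 CPM in the 1MO CLPs and 43.9, 69.3 and 73.8 CPM in the 1MO MPPs. Its 3MO values overlapped, at 35.1, 21.2 and 28.5 CPM and 29.4, 51.1 and 75.2 CPM. Its log2 fold change was -1.19 at 1MO (SE 0.31, adjusted p = 0.036 by edgeR) and -0.88 at 3MO (SE 0.31, adjusted p = 0.12). The 1MO value ranged from 0.0083 to 0.15 over the fits without a library, and 6 of the 12 lost the call. Rtp4 did not overlap at either age and passed by DESeq2 but not by edgeR, with means of 14.3 and 32.9 CPM at 1MO and 9.52 and 22.3 at 3MO (adjusted p = 0.094 and 0.081 by edgeR, 0.036 and 0.031 by DESeq2). Bst2, which encodes tetherin, had a positive log2 fold change at both ages, 0.49 and 0.23, and did not pass. Cmpk2, Ifi44, Trim30a and Xaf1 did not pass either.

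None of the 6 sensors of nucleic acid and none of the 10 members that relay or tune the signal passed by edgeR in either comparison of the populations. DESeq2 called Ifi203 lower in CLPs at 1MO (adjusted p = 0.016) and 3MO (adjusted p = 0.014) and Herc6 lower at 1MO (adjusted p = 0.039). All 6 sensors had a negative log2 fold change at both ages, with a median of -0.68 at 1MO and -0.29 at 3MO. Ifi203 was the most abundant of them and did not overlap between the populations at either age, at 455 and 601 CPM at 1MO (adjusted p = 0.095 by edgeR) and 384 and 507 CPM at 3MO (adjusted p = 0.086). Ifih1, the RNA sensor MDA5, was at 31.6 and 57.4 CPM at 1MO (adjusted p = 0.14 by edgeR). Among the relay genes, Herc6, the ligase that attaches Isg15 in mice, was at 68.4, 46.9 and 42.1 CPM in the 1MO CLPs and 99.5, 106 and 91.2 CPM in the 1MO MPPs. The 3MO values were 89.9, 39.3 and 86.7 CPM and 87.4, 57 and 89.5 CPM. The 1MO groups did not overlap (log2 -0.92, SE 0.29, adjusted p = 0.085 by edgeR) and the 3MO groups did (log2 -0.12, SE 0.29). Irf9, the DNA-binding part of the type I complex, was at 102, 117 and 101 CPM in the 1MO CLPs and 101, 118 and 118 CPM in the 1MO MPPs, and Stat2, its partner, at means of 66.3 and 77.8 CPM, so both were close between the populations. Dtx3l, Parp9, Parp14, Ifi35, Irf7, Isg15 and Usp18 also did not pass. Dtx3l and Parp9 overlap on opposite strands.

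With age, no member passed the test in either population, and most fitted changes pointed to lower levels at 3MO. In CLPs 0 of 39 members passed, where 0.0748% of all genes did, and 28 of the 39 log2 fold changes were below 0, against 51.2% of all genes. The median was -0.24 over the members and -0.01 over all genes. At an unadjusted p under 0.05, 4 members were lower, against 2.94% of all genes, and 0 higher, and DESeq2 called 1 member, Gbp2. The 3MO libraries lay below the 1MO libraries for 4 members and above them for 2, where 6.13% and 4.51% of all genes did so. In MPPs 0 of 39 passed, by edgeR and by DESeq2, where 0.0224% of all genes passed by edgeR, and 33 of the 39 log2 fold changes were below 0, against 51.8% of all genes, with a median of -0.34 against -0.01. Over the 12 fits without a library this median ranged from -0.46 to -0.18, the latter without library 3 of the 1MO MPPs. At an unadjusted p under 0.05, 1 member was lower, against 1.41% of all genes, and 0 higher. The 3MO libraries lay below the 1MO libraries for 7 members and above them for 1, where 4.61% and 3.96% of all genes did so. The sum over the 39 members was 2089, 2309 and 2324 CPM in the 1MO CLPs and 1963, 1922 and 2266 CPM in the 3MO CLPs, which overlap. In MPPs it was 2790, 3217 and 3004 CPM at 1MO and 2648, 2420 and 2697 CPM at 3MO, which do not. The mean of the members' log2 CPM, which weights abundant and scarce members equally, overlapped in MPPs, at 5.11, 5.50 and 5.53 at 1MO and 4.84, 4.95 and 5.27 at 3MO.

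No marker of neutrophils or of monocytes and macrophages passed by edgeR with age in either population, but their fitted changes were uneven, and their part in these results was not tested. In MPPs the fitted log2 fold change with age was above 0 for 10 of 10 neutrophil markers, with a median of 1.39, and 0 passed by edgeR, with 5 at an unadjusted p under 0.05. Their sum was 674 to 823 CPM at 1MO and 621 to 1006 at 3MO, which overlap. In CLPs it was above 0 for 8 of these 10, with a median of 0.72, and the sum was 945 to 1326 CPM at 1MO and 862 to 1147 at 3MO. The monocyte and macrophage markers had a median of 0.67 in MPPs and -0.09 in CLPs, and 0 passed in either, with 5 higher in MPPs at an unadjusted p under 0.05. Of 7 tested stroma markers, Col1a1 and Col1a2 were lower at 3MO in CLPs by edgeR, at means of 223 and 100.3 CPM at 1MO and 0.639 and 0.554 at 3MO. Of 8 tested B-lineage markers 0 passed with age, and 7 had a log2 fold change below 0 in CLPs, with a median of -1.29. In MPPs 5 of these 8 were below 0, with a median of -1.56, and 4 were lower and 1 higher at an unadjusted p under 0.05. Of 8 tested plasmacytoid dendritic markers 0 passed with age. Their log2 fold change was above 0 for 8 in MPPs, with a median of 0.35, and for 3 in CLPs, with a median of -0.20.

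Gbp2 had the smallest p of the members with age in CLPs. Its mean was 10.8 ± 2.97 CPM (SD, n = 3) at 1MO and 3.76 ± 0.506 CPM at 3MO with no overlap, a log2 difference of -1.53 (SE 0.31, adjusted p = 0.13 by edgeR). In MPPs it was at 41.5 ± 3.96 CPM and 34.8 ± 10.5 CPM (log2 -0.25, SE 0.29). Cmpk2, a mitochondrial nucleotide kinase whose gene lies beside Rsad2, was next, at 24, 27.7 and 31.1 CPM in the 1MO CLPs and 15, 12.1 and 16.4 CPM in the 3MO CLPs (chr12:26469204-26479837, plus strand). In MPPs Cmpk2 was at 27.7, 34.7 and 37.1 CPM at 1MO and 10.7, 27.3 and 28.8 CPM at 3MO. Its CLP groups did not overlap, but the change did not pass (log2 -0.93, SE 0.33, adjusted p = 0.71 by edgeR), and its MPP groups overlapped. Ifit1 had a log2 difference of -1.45 in CLPs (SE 0.54, adjusted p = 0.77 by edgeR), between groups that overlapped.

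In MPPs the smallest p with age belonged to Dhx58, which encodes the RNA-binding regulator LGP2 (chr11:100694884-100704271, minus strand). It was at 34.6, 40.9 and 46.4 CPM in the 1MO MPPs and 27.1, 25.6 and 25.2 CPM in the 3MO MPPs, without overlap (log2 -0.65, SE 0.25, adjusted p = 1 by edgeR). In CLPs it was at 35, 23.6 and 27.4 CPM and 14.4, 22.3 and 24 CPM, which overlapped. Oas3 had a log2 difference of -0.53 in MPPs (SE 0.25) and -0.16 in CLPs (SE 0.25). Irf9 (chr14:55603571-55610030, plus strand) was at 85.9, 82.3 and 98.9 CPM in the 3MO MPPs, each below the 1MO libraries, a log2 difference of -0.33 (SE 0.16). In the 3MO CLPs it was at 87.1, 113 and 107 CPM and overlapped 1MO. Irf9 overlaps Rnf31 on the same strand, so its counts may hold reads of that gene.

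**Figure D4:**
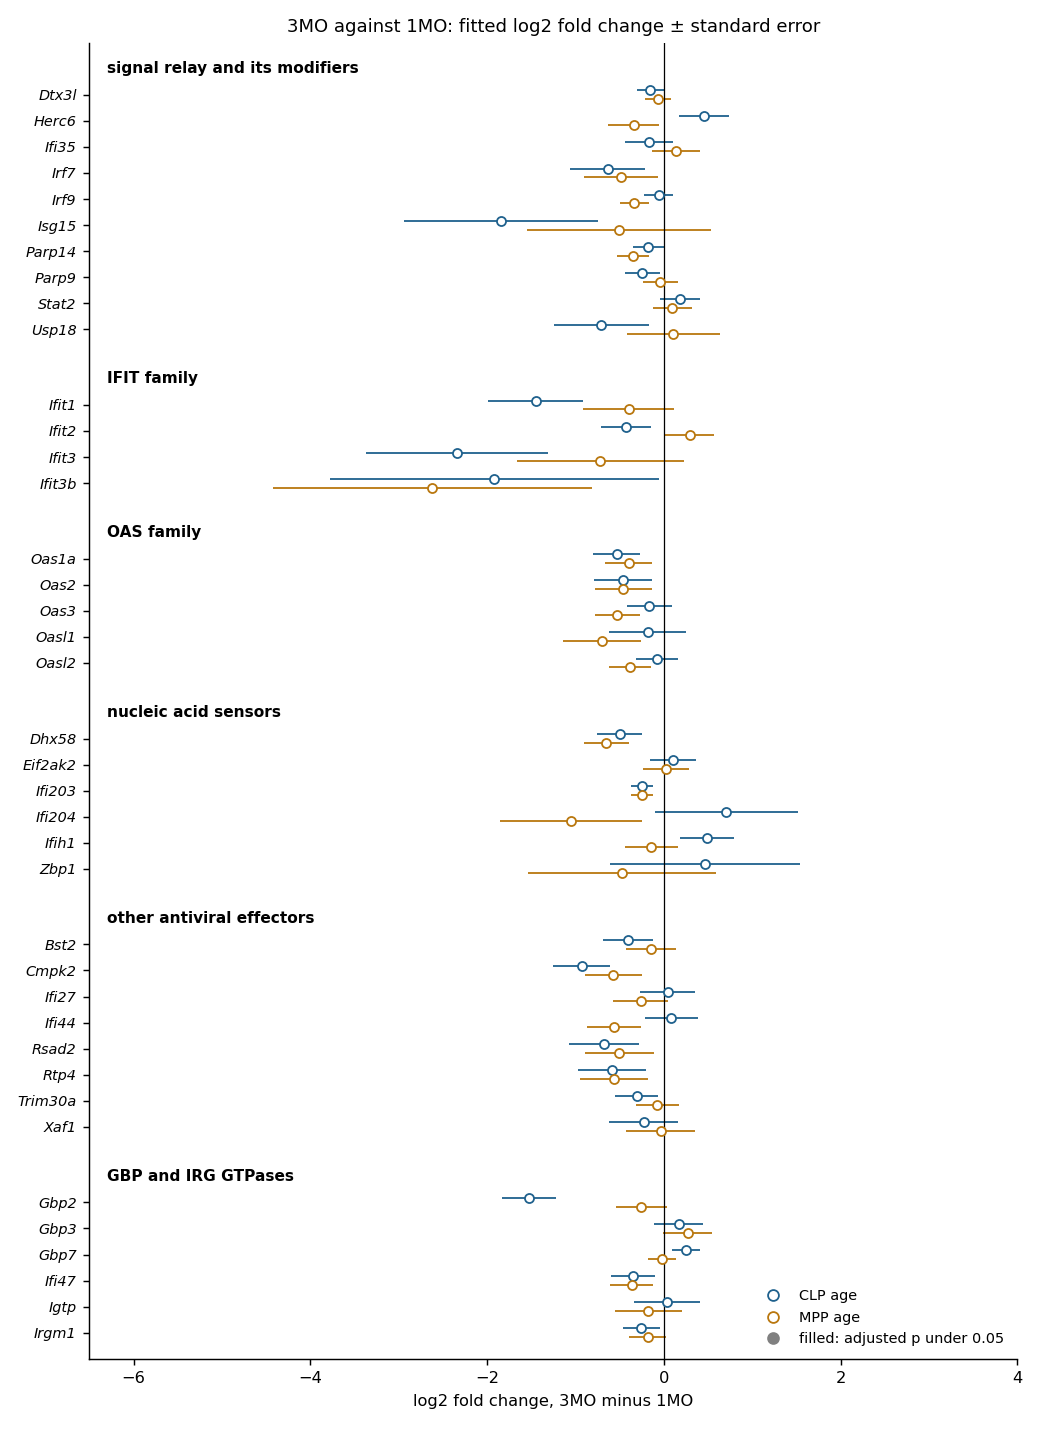
Fitted log2 fold change of 3MO against 1MO in CLPs and in MPPs for the 39 members by role, with its standard error as the bar. All points are open, since none passes an adjusted p of 0.05. Most lie to the left of 0 in both populations, and Gbp2 lies at -1.53 in CLPs and -0.25 in MPPs.

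Whether age acted differently in the populations was tested as an interaction, the CLP change minus the MPP change. 0 of 39 members passed by edgeR and 0 by DESeq2, as did 0% of all genes by edgeR, and 1 member, Gbp2, was at an unadjusted p under 0.05, where 3.21% of all genes were. The interaction was -1.28 for Gbp2 (log2, SE 0.42, adjusted p = 1 by edgeR), 0.80 for Herc6 (SE 0.40) and -0.72 for Ifit2 (SE 0.40). Its median over the members was -0.01.

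Within groups, the members were often lowest in the same library at 1MO, whereas at 3MO most were divided between libraries 1 and 2. In the 1MO CLPs 30 of the 39 members were lowest in library 1, which was the lowest for 41% of all genes, and in the 1MO MPPs 26 members were lowest in library 1, where 32.7% of all genes were. At 3MO 18 members in CLPs and 17 in MPPs were lowest in library 1, against 36.5% and 45.5% of all genes. Library 2 was lowest for 16 members in the 3MO CLPs and 15 in the 3MO MPPs, against 35.6% and 24% of all genes. In the 3MO MPPs 25 members were highest in library 3, where 33.2% of all genes were. Irf7, Rsad2, Rtp4 and Igtp were lowest in library 1 of all 4 groups, and Ifit3b likewise but for a tie at 0 with library 2 of the 3MO CLPs, as were 4.41% of all genes. Irf7, the factor that amplifies interferon production, was at 15.9, 33.2 and 34.6 CPM in the 1MO CLPs and 24.3, 38.1 and 52.5 CPM in the 1MO MPPs, with library 1 lowest in each. At 3MO it was at 9.18, 26.4 and 18.2 CPM in CLPs and 15.3, 33.9 and 32.9 CPM in MPPs, with the same library lowest. With the 4 libraries numbered 1 left out, 7 members were lower in CLPs at 1MO and 6 at 3MO, where 673 and 607 of 13575 genes were called in either direction. Rsad2 and Xaf1 were added at 1MO, and at 3MO Ifi27 was added while Ifit2 and Oas3 were lost. With the 4 libraries numbered 3 left out, 3 were lower at 1MO and 2 at 3MO, where 258 and 290 of 13318 genes were called, and Gbp2 and Oas2 were those at 3MO.

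Upstream of the members, the interferons themselves were barely counted. Of 21 interferon genes with a row, 19 were at 0 in all 12 libraries, and no library held more than 3 counts of any. A count of 0 allows a level of up to 0.145 to 0.337 CPM, depending on the library, and covers counting error only. Of the receptor genes, Ifnar1, Ifnar2, Ifngr1 and Ifngr2 were counted in all libraries, whereas Ifnlr1, for the interferon-lambda receptor, was at 0 in 8 of the 12, at 0.712 CPM or less in the rest, and was not tested. Ifnar1 was at 262, 267 and 205 CPM in the 3MO CLPs and 169.6, 160.5 and 138 CPM in the 3MO MPPs, and was higher in CLPs at 3MO (log2 0.65, SE 0.16, adjusted p = 0.027 by edgeR). At 1MO it was at 227, 187 and 190.2 CPM and 157, 131 and 125 CPM, also without overlap (log2 0.55, SE 0.16, adjusted p = 0.069). The direction was thus opposite to that of the called members. Ifnar2 was at means of 166 and 165 CPM in CLPs and 136 and 180.3 CPM in MPPs at 1MO and 3MO, and did not pass. The interferon-gamma receptor genes Ifngr1 and Ifngr2 did not pass in any comparison. Irf1, which drives many interferon-gamma targets, was at 73.9 CPM in the 3MO CLPs and 114 CPM in the 3MO MPPs and did not pass (adjusted p = 0.078 by edgeR).

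Of 8 interferon factors outside the members 1 differed, Irf8, which governs dendritic cell and monocyte fate. It was at 805, 897 and 841 CPM in the 1MO CLPs against 65.9, 96.2 and 51.3 CPM in the 1MO MPPs, 11.9-fold higher (adjusted p = 1.5e-07 by edgeR), and 8.52-fold higher at 3MO (adjusted p = 8.9e-07). Of 8 genes that restrain the pathway, Irf2bp2, a partner of Irf2, was higher in CLPs at both ages, with log2 fold changes of 0.72 and 0.65. Of 15 tested genes for sensors of nucleic acid or microbes and the proteins that carry or relay their signals, 2 were higher in CLPs at both ages. They were Tlr9, the endosomal sensor of DNA, with log2 fold changes of 2.08 and 2.09, and Unc93b1, which carries it to the endosome, with 1.14 and 1.19. Ddx58, which encodes the cytosolic RNA sensor RIG-I and is itself interferon-induced, was lower in CLPs at both ages, at 64.8, 58.1 and 54.7 CPM against 135, 156 and 128 CPM at 1MO and 50.0, 59.7 and 40.2 CPM against 129, 132 and 123 CPM at 3MO (log2 -1.24 and -1.36, adjusted p = 0.00037 and 0.00022 by edgeR). Tlr4, the receptor of bacterial lipopolysaccharide, was lower at 3MO (log2 -2.31, adjusted p = 0.0037 by edgeR).

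A further list of 89 interferon-stimulated genes outside the 41 was read beside them, of which 80 were tested. At 1MO 12 were lower and 3 higher in CLPs, and at 3MO 15 were lower and 3 higher, against 2.81% lower and 2.57% higher of all genes at 1MO and 3.34% and 2.73% at 3MO, so that the share higher was near that of all genes. Their median log2 fold change was -0.22 at 1MO and -0.35 at 3MO, and 0 passed with age in either population. The smallest p at both ages was that of Samd9l, a regulator of myeloid growth, at 37.6, 47.1 and 42.7 CPM in the 1MO CLPs against 158, 168 and 149.7 CPM in the 1MO MPPs (log2 -1.90, adjusted p = 1e-05 by edgeR) and -1.72 at 3MO (adjusted p = 3.1e-05). Parp12 and Cd274, the latter encoding the checkpoint ligand PD-L1, were also lower at both ages, with log2 fold changes of -1.64 (1MO) and -2.22 (3MO) for Parp12 and -1.97 (1MO) and -1.22 (3MO) for Cd274.

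The 3 genes higher in CLPs at both ages were Gbp4, Gbp8 and Ifi209, of which Gbp4 and Gbp8 are described here after their values were seen. Ifi209, another HIN-200 gene, had log2 fold changes of 1.71 and 1.55. Gbp4 and Gbp8 belong to a second cluster of GBP genes on chromosome 5, whereas Gbp2 lies on chromosome 3. Gbp4 was at 14.6, 11.8 and 10.3 CPM in the 1MO CLPs and 1.53, 1.21 and 2.41 CPM in the 1MO MPPs (log2 2.79, SE 0.55, adjusted p = 0.0059 by edgeR). At 3MO it was at 33.9, 37.2 and 91.1 CPM and 14.4, 2.88 and 12.8 CPM (log2 2.44, SE 0.52, adjusted p = 0.0099). Gbp4 and Gbp2 thus lay in opposite order between the populations. With age Gbp4 had a log2 difference of 2.15 in CLPs and 2.51 in MPPs, with no overlap in either, and did not pass (adjusted p = 0.27 and 0.36 by edgeR). Gbp8 was at 22.7, 23.4 and 11.6 CPM in the 1MO CLPs and 26.4, 30.4 and 81.6 CPM in the 3MO CLPs, and at 2.97, 4.94 and 4.76 CPM and 9.62, 9.21 and 10.2 CPM in MPPs. Library 3 of the 3MO CLPs was far above the other two for both genes. The annotated spans of Gbp4 and Gbp8 overlap, so their counts may share reads.

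**Figure D5:**
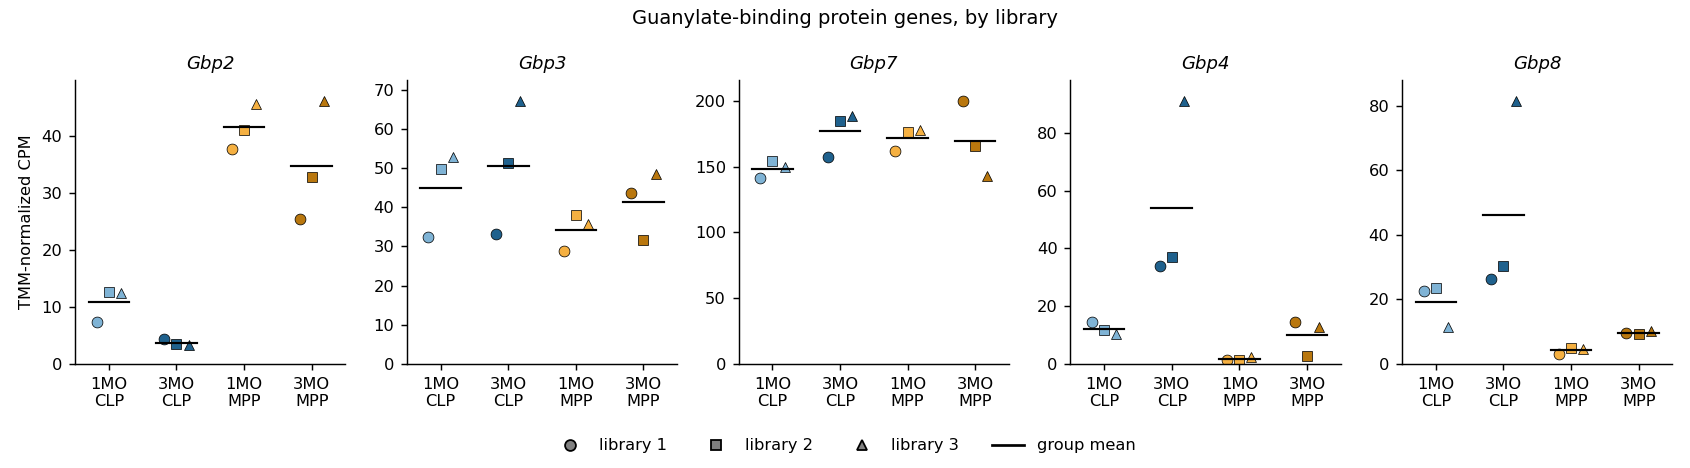
TMM-normalized CPM in each library for 3 GBP genes of chromosome 3 (Gbp2, Gbp3 and Gbp7) and 2 of chromosome 5 (Gbp4 and Gbp8), with lines at the group means. Gbp2 is lower in CLPs, Gbp4 and Gbp8 are higher in CLPs, and Gbp3 and Gbp7 overlap between the populations at 3MO.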

How the data were processed

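RNA of Ly6d- CLPs and Flk2+ MPPs at 2 ages was profiled in 12 libraries of 4 groups, taken from the sample titles. Per the labels, libraries came from a directional kit, and FastQC, UMI-tools, Trim Galore, STAR and Salmon were used with build mm10. The authors deposited a table of estimated counts from Salmon, corrected for the length of transcripts and left unscaled for library depth. The annotation they used is not given in the sources used here. All 12 columns were matched by name.

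Counts were rounded and fitted with edgeR 4.0.16 (R 4.3.3): filterByExpr, TMM, quasi-likelihood test, 1 fit of 4 groups, 13367 genes, Benjamini-Hochberg adjusted p under 0.05 over all genes. CPM are TMM-normalized. The contrasts compared ages within each population, populations within each age, and the changes with age. SE is the fold change divided by the root of F. DESeq2 1.42.0, RLE scaling, other filters, subsets of libraries and left-out libraries were alternatives. The code was tested on simulated data. Positions and exon lengths came from GENCODE M21 (GRCm38) through the Ensembl identifiers. Figures used matplotlib, and p-values measure the spread between libraries, which may be partly technical.

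The members and lists were chosen with earlier results of these data known. Every member is accounted for, and values in all libraries are given for those past the threshold in a comparison and the 3 with the smallest p in each. Pathway genes outside the members are named where they passed, up to 4 a list, with the receptors and Irf1. A further gene that the rule names is not reported here.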

Additional observations from a re-analysis of the deposited data

Results flagged for a closer look

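Ifi204, a HIN-200 gene, was the 1 member whose 3MO libraries all lay above the 1MO libraries in one population and all below them in the other. In CLPs the 3MO libraries, at 2.22, 1.55 and 2.21 CPM, all lay above the 1MO libraries, at 1.53, 0.741 and 1.4 CPM, a log2 difference of 0.71 (SE 0.81). In MPPs the 3MO libraries, at 0.634, 2.73 and 3.05 CPM, all lay below the 1MO libraries, at 4.26, 4.83 and 4.28 CPM, a log2 difference of -1.05 (SE 0.80). The test of the difference between these changes did not pass (log2 1.75, SE 1.14, adjusted p = 1 by edgeR), and the gene was under 5 CPM in every group.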

How the results depend on the processing

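Each alternative kept the direction of every member past the threshold, and of the 3 with the smallest p in each comparison of ages and for the interaction. At 1MO, in place of 5 members lower in CLPs, DESeq2 called 9, with Herc6, Ifi203, Rsad2 and Rtp4 added, a fit of only those groups 8, with Herc6, Rsad2 and Rtp4 added, and the libraries numbered 1 and 2 alone 3. At 3MO, in place of 7, DESeq2 called 11, with Ifi203, Ifit3, Oas1a and Rtp4 added, a fit of only those groups 5, without Ifit2 and Rsad2, and the libraries numbered 1 and 2 alone 2. The subsets by number were chosen after seeing the data. Leaving out each library in turn gave 4 to 6 at 1MO and 3 to 9 at 3MO, with 3 without library 1 of the 3MO CLPs, when Ifit1, Ifit2, Oas3 and Rsad2 were lost, and 4 without library 2 of the 3MO MPPs, when Ifit2, Oas3 and Rsad2 were. Ifit1 was also lost without library 3 of the 3MO CLPs, Oas3 and Rsad2 without its library 2, Ifit2 and Oas3 without library 1 of the 3MO MPPs and Ifit2 and Rsad2 without its library 3. Ifi27 at 1MO was lost without any 1 of the 1MO CLP libraries, library 2 or 3 of the 1MO MPPs or library 2 of the 3MO MPPs. With age in CLPs, DESeq2 and a fit with no filter beyond 1 count each called 1 member, Gbp2, in place of 0. The cause was not tested. Over all genes, edgeR called 10 with age in CLPs, 3 with age in MPPs, 0 for the interaction, 719 at 1MO and 812 at 3MO, against 66, 35, 7, 1230 and 1408 by DESeq2 and 46, 26, 6, 903 and 1061 with no filter. With at least 10 counts in every library, 4 and 1 genes were called with age in CLPs and MPPs, and with the libraries numbered 1 and 2 alone, 258 at 1MO and 290 at 3MO. With only the groups compared, 4 were called with age in CLPs and 435 at 3MO, and 900 at 1MO. Leaving out each library gave 6 to 10 with age in CLPs, 3 to 5 in MPPs, 460 to 887 at 1MO and 553 to 881 at 3MO.

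The study describes independent experiments with cells sorted per mouse, and the labels number the libraries in series by library number, but neither says that equal numbers mark the same mouse, experiment or day. Deviations from the group means correlated at -0.03 to 0.21 between libraries of the same number and at -0.24 to 0.14 between others. Between libraries numbered 3 the correlation was 0.20 for the 1MO populations and 0.21 for the ages of MPPs. It was 0.09 for the 3MO populations and -0.0002 for the ages of CLPs. The libraries numbered 3 also had the highest erythroid marker sums of their groups. The ranges overlap, and the numbers were not taken as pairs in the main fit. Whether a number marks a batch was not tested. With the number as a replicate block 9 members were lower in CLPs at 1MO, with Herc6, Ifit1, Rsad2 and Rtp4 added, and 8 at 3MO, with Rtp4 added. With the block within each age 11 were lower at 1MO, with Ifi44 and Ifih1 added to those 9, and 5 at 3MO, without Ifit2 and Oas3. Over all genes, the block called 915 at 1MO and 1007 at 3MO of 13367, and the block within each age 1006 of 12707 and 561 of 12553. No member passed with age under the block. The depth and 3 libraries a group limit the low members, such as Ifit3b and Ifi204, whose SE exceeded most others.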

Other observations

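Among the further interferon-stimulated genes lower in CLPs, the membrane proteins of the Ifitm family, which block viral fusion, were picked out after their values were seen. Ifitm1 was at 5.85, 7.26 and 10.3 CPM in the 1MO CLPs and 65.3, 57.8 and 101 CPM in the 1MO MPPs, a log2 fold change of -3.25 (SE 0.51, adjusted p = 0.00088 by edgeR). At 3MO it was at 2.02, 12.6 and 4.43 CPM in CLPs and 34.5, 58.3 and 76.2 CPM in MPPs (log2 -3.12, SE 0.51, adjusted p = 0.0014 by edgeR). Ifitm3 was also lower at both ages, with log2 fold changes of -1.86 and -1.96 (adjusted p = 0.0048 and 0.0036 by edgeR), and Ifitm2 at 1MO (-1.35, adjusted p = 0.03 by edgeR) with -1.18 at 3MO (adjusted p = 0.055). These genes are near-identical in parts, so reads can be shared between them. Iigp1, an immunity-related GTPase picked in the same way, was at 6.57, 11.4 and 9.14 CPM in the 1MO CLPs and 31.1, 46.5 and 36.8 CPM in the 1MO MPPs (log2 -2.07, adjusted p = 0.00081 by edgeR) and was lower at 3MO too (log2 -1.74, adjusted p = 0.0034 by edgeR). Of the same family, Tgtp1 was lower at 3MO (log2 -1.41, adjusted p = 0.033 by edgeR) with -1.08 at 1MO (adjusted p = 0.11), and Igtp, Irgm1, Irgm2 and Tgtp2 did not pass at either age.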
